A study of Mus musculus with 8 samples.

Results

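The 10 genes described here are Sirt1 to Sirt7, the 7 mouse sirtuins, and Nampt, Nmnat1 and Nadk, 3 enzymes of NAD synthesis and its onward use. They were taken by symbol from a table of 17847 genes, and all 10 were measured and passed the filter on low values. RNA came from sorted muscle stem cells (satellite cells), which express Pax7 and rebuild fibres after injury, and was sequenced as 4 Cox10-/- and 4 wild-type libraries. The Cox10-/- mice carried a floxed Cox10 allele and a Pax7-Cre(ERT2) driver, in which the Pax7 gene's regulation limits Cre to cells expressing Pax7 and tamoxifen switches it on. Mice of both genotypes were adult C57Bl/6. The labels list a tamoxifen injection of 200 mg/kg for the samples of both genotypes, with cells taken 2 days after it, and do not say whether the wild-type mice carried the Cre or the floxed allele. The sort kept CD34+ cells and left out those with CD31, CD45, Sca1 or the dead-cell dye DAPI. No label says that each library came from its own animal, so p-values measure the spread between these samples, which may in part be technical.

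NAD is the coenzyme that carries electrons from fuel oxidation to the respiratory chain. Cox10 acts in a step towards haem A, which complex IV, the chain's last enzyme, needs to work. NAD is also consumed. Sirtuins use it to remove acetyl and other acyl groups from proteins and release nicotinamide, which Nampt turns into nicotinamide mononucleotide in the slowest step of salvage. Nmnat1 then makes NAD from it in the nucleus, and Nadk adds a phosphate to NAD in the cytosol to give NADP. In mouse muscle stem cells, Sirt1 is known for removing acetyl groups from histone H4 and thereby holding back muscle genes.

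Of the 10 genes, Nampt rose in Cox10-/- cells, Nmnat1 fell, and the other 8 did not pass the test. That is 2 of 10, or 20%, where 16.1% of the 17801 genes tested passed at a limma adjusted p under 0.05, 7.58% higher and 8.51% lower in Cox10-/-. The median log2 fold change was 0.126 over the 10 genes and -0.055 over all genes tested. The 4 libraries of each genotype did not overlap for 4 of the 10 (Nampt, Sirt1, Sirt2 and Sirt6), a pattern found in 21.1% of all genes tested. The share that passed is near its background, so that count does not set the 10 genes apart from the transcriptome.

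The promoters of Nampt and Sirt1 are shown because every Cox10-/- library lay above every wild-type library for both genes. RefSeq (GRCm38.p6) lists 14 starts for the 10 genes, and the bases before each start were searched on both strands, in windows of 250 bases. The letters were GGGCGG (the GC box, bound by Sp1), CACGTG (the E-box of basic helix-loop-helix factors), ACGTG (the core letters of hypoxia-inducible factor sites), GTAAACA (the forkhead letters of FoxO factors), CCGGAAG (ETS factors) and CCAAT (the NF-Y box). Capitals mark GC boxes, E-boxes and the hypoxia core in both sequences, written 5′ to 3′ in the gene's direction. They span chr12:32820085-32820334 on the plus strand for Nampt and chr10:63339051-63339285 on the minus strand for Sirt1, where 15 exon bases next to the start were left out.
Nampt: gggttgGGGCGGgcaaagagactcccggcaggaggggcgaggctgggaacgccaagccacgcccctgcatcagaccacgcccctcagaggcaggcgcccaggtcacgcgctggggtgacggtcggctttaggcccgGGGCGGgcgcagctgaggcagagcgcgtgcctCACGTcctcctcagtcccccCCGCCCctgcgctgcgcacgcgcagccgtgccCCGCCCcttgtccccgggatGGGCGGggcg
Sirt1: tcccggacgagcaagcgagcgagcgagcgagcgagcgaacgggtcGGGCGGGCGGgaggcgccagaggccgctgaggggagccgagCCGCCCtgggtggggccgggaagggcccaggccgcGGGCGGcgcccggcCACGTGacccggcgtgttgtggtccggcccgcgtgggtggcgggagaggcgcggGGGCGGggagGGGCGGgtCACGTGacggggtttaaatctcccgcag

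The Nampt window held 5 GC boxes, 1 hypoxia core and no E-box. The Sirt1 window held 6 GC boxes, of which 2 overlap, and 2 E-boxes, at 115 to 110 and at 43 to 38 bases before the start. Each E-box also contains the hypoxia core on both strands. Among the other members, at least 1 window held a GC box for every gene but Sirt4, and an E-box for Nadk. Hypoxia cores were also in windows of Nadk, Sirt4, Sirt5 and Sirt6. Over all 32851 promoter windows of the same length, 32.7% held a GC box, 6.02% an E-box and 16.6% a hypoxia core. GC content was 75.6% for Nampt and 79.2% for Sirt1, with a median of 52.4% over all windows. The FoxO letters, present in 3.17% of all windows, were in none of the 14 windows of the 10 genes. The ETS letters stand in 6.91% of all windows, and were found for Nmnat1, Sirt3, Sirt6 and Sirt7. CCAAT stands in 33.8% of all windows, and was found for Nmnat1, Nadk, Sirt2, Sirt3 and Sirt5. These are matches of letters only.

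Facts about the libraries bear on every value below. Levels are log2 CPM, the base-2 logarithm of reads scaled to library size, and the steps between low values gave 1694308 to 4348313 reads in genes per Cox10-/- library and 2146747 to 4652621 per wild-type library. The shallowest libraries were Cox10-/- replicate 4 and wild-type replicate 2. By the chi-square of reads, replicate 1 of each genotype most resembled replicate 2, and replicate 3 replicate 4 (2.46 to 2.99 per degree of freedom in these 4 pairs, 4.51 to 6.95 in the other 8). By Pearson correlation across genes, Cox10-/- replicate 3 was slightly closer to replicate 2 (r = 0.972) than to replicate 4 (r = 0.970), so the pairing is less clear for that library. All 12 pairs within a genotype differed by more than sampling noise, and the labels do not say what the pairs share, so differences within replicates 1 and 2 and within 3 and 4 are given beside the pooled ones.

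Cox10 itself had 3.51, 3.69, 3.49 and 2.05 log2 CPM in Cox10-/- replicates 1 to 4, against 3.98, 3.42, 4.12 and 3.69 in wild-type replicates 1 to 4. The genotypes overlapped, and the difference was -0.62 ± 0.34 (log2, SE; adjusted p = 0.246), with an exact two-sided permutation p of 0.2 over 70 assignments, where the smallest possible is 0.0286. Without Cox10-/- replicate 4, which had 7 Cox10 reads, the difference was -0.24. The labels do not name the deleted exon, and reads from outside it do not test the deletion.

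Markers of muscle stem cells and of some other cell types differed between the genotypes. Summed levels did not overlap for stem cell, endothelial and mural markers. They overlapped for fibro-adipogenic, fibre and immune markers. All 8 muscle stem cell markers were measured, with Pax7 at 7.15 to 7.52 log2 CPM in Cox10-/- libraries and 8.45 to 8.77 in wild-type libraries. Of the 8, 6 (75%) fell, Pax7 among them (limma adjusted p = 1.90e-05). Over all genes tested, 7.58% passed higher and 8.51% lower in Cox10-/-. The summed level of the 8 was 867.5 to 1091 CPM in Cox10-/- libraries and 1658 to 1979 CPM in wild-type libraries. Cox10-/- mice carried the Pax7-Cre(ERT2) driver, and the labels do not say whether wild-type mice did. Any part of the driver in the Pax7 level was not tested. Endothelial markers summed to 352.5 to 440.4 CPM in Cox10-/- and 262.3 to 310.3 CPM in wild-type (5 of 10 rose), and mural cell markers to 914 to 1151 CPM in Cox10-/- and 587.9 to 813.6 CPM in wild-type (2 of 5 rose and 2 fell). Fibro-adipogenic markers summed to 3405 to 7154 CPM in Cox10-/- and 3316 to 4484 CPM in wild-type (2 of 6 rose), and fibre markers to 88.0 to 249.7 CPM in Cox10-/- and 57.3 to 144.7 CPM in wild-type (2 of 6 rose). The 3 immune markers measured (Cd68, Lyz2 and Csf1r) summed to 24.17 to 44.65 CPM in Cox10-/- and 23.47 to 31.28 CPM in wild-type, and none passed limma's test, with an unadjusted p under 0.05 for 1 of them (Cd68). The sort was meant to exclude CD31-bearing endothelial cells and Sca1-bearing fibro-adipogenic cells. Pecam1, the gene of CD31, was among the 5 endothelial markers that rose, and Ly6a, the gene of Sca1, among the 2 fibro-adipogenic ones. The part of the markers of all these cell types in the results below was not tested. In sorted bulk RNA, fewer cells of a type and less RNA per cell cannot be told apart.

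Nampt, the enzyme of the slowest salvage step, rose. It stood at 7.30, 7.28, 7.68 and 7.87 log2 CPM in Cox10-/- replicates 1 to 4, against 6.33, 6.42, 6.29 and 6.32 in wild-type replicates 1 to 4. All Cox10-/- libraries lay above all wild-type libraries, and the wild-type values were within 0.13 of one another. The log2 fold change was 1.19 ± 0.13 (SE, n = 4 libraries per genotype; limma adjusted p = 9.67e-05), which is 2.29 times the wild-type level with a 95% interval of 1.88 to 2.78. The difference was 0.915 within replicates 1 and 2 and 1.47 within replicates 3 and 4. Nampt passed when any of the 8 libraries was left out, with log2 fold changes of 1.08 to 1.28. It also passed when each genotype was reduced to 2 means, of replicates 1 and 2 and of 3 and 4 (adjusted p = 0.00333).

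Nmnat1, which completes NAD synthesis in the nucleus, fell, on few reads. Its levels were 3.14, 1.78, 1.95 and 1.82 log2 CPM in Cox10-/- replicates 1 to 4, from 38, 15, 12 and 6 reads. They were 3.34, 3.14, 3.69 and 3.69 log2 CPM in wild-type replicates 1 to 4, from 36, 19, 60 and 52 reads. Cox10-/- replicate 1 equalled wild-type replicate 2, and the other 3 Cox10-/- libraries lay below all wild-type libraries. The log2 fold change was -1.29 ± 0.33 (SE, n = 4 libraries per genotype; adjusted p = 0.0201), with the Cox10-/- mean at 40.8% of wild-type. The fall was -0.78 within replicates 1 and 2 and -1.805 within replicates 3 and 4. The call was lost without Cox10-/- replicate 2 (adjusted p = 0.055) or 3 (0.0593), without wild-type replicate 3 (0.0564) or 4 (0.0556), and with 2 means per genotype (0.0903).

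Nadk, the cytosolic kinase that turns NAD into NADP, did not pass. It had 6.50, 6.42, 6.54 and 6.03 log2 CPM in Cox10-/- replicates 1 to 4 and 6.15, 6.10, 6.31 and 6.28 in wild-type replicates 1 to 4. Cox10-/- replicates 1 to 3 were above every wild-type library, and Cox10-/- replicate 4, the shallowest of its genotype, was below every one. The difference was 0.16, with a 95% interval of -0.11 to 0.43 (adjusted p = 0.405).

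Nampt and Nmnat1, which make and use nicotinamide mononucleotide, thus had log2 fold changes of opposite sign, the second of them resting on a call that several fits lost. Within each library, Nampt minus Nmnat1 was 4.16, 5.50, 5.73 and 6.05 on the log2 scale in Cox10-/- replicates 1 to 4, against 2.99, 3.28, 2.60 and 2.63 in wild-type replicates 1 to 4. The mean difference was 5.36 ± 0.83 in Cox10-/- and 2.88 ± 0.32 in wild-type (SD, n = 4 each). The libraries did not overlap, but this quantity was chosen after both genes' values were seen and was not tested.

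**Figure D1:**
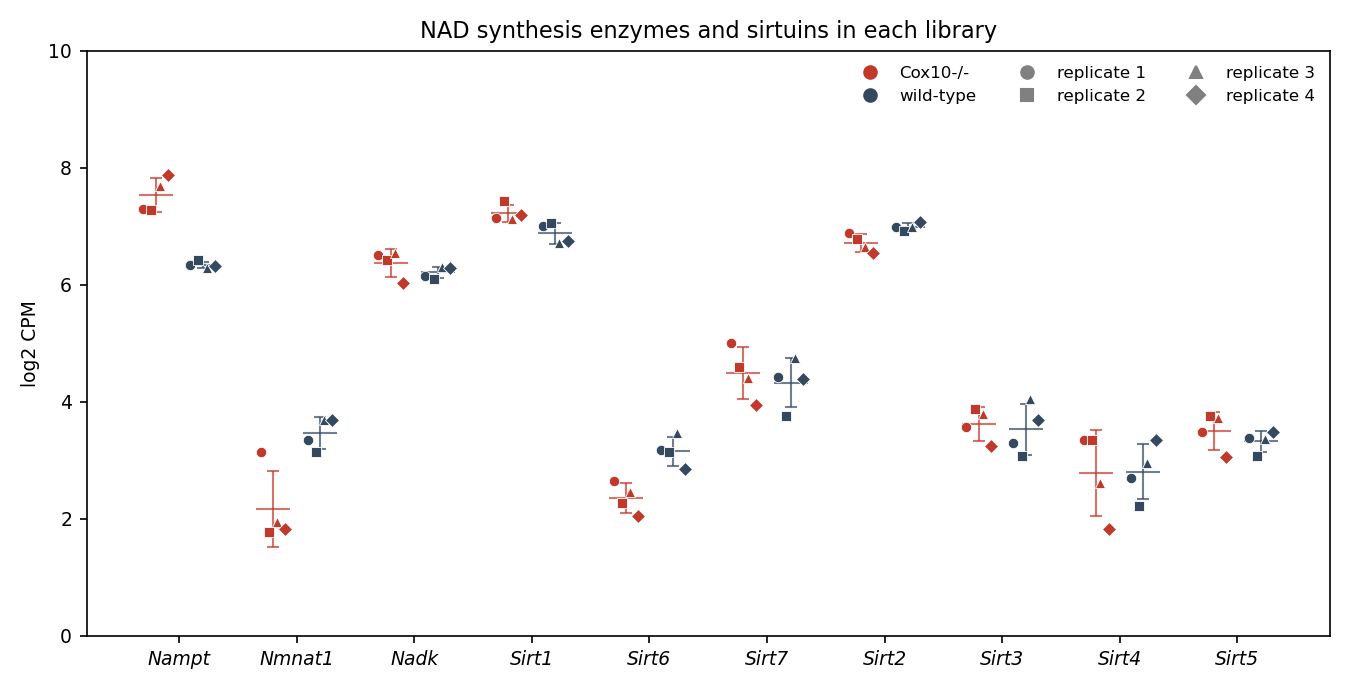
Log2 CPM of the 3 NAD enzymes and the 7 sirtuins (x axis) in each of the 4 Cox10-/- (red) and 4 wild-type (dark blue) libraries. Marker shape gives the replicate number, and bars give the mean and SD of 4 libraries. Nampt has the widest gap between the genotypes (0.86), while Nmnat1 of Cox10-/- replicate 1 (3.14) lies with the wild-type values.

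None of the 7 sirtuins passed limma's test after adjustment, although 3 had an unadjusted p under 0.05 (Sirt1, Sirt2 and Sirt6), where 30.9% of all genes tested did. Limma voom on reads recovered from the table called 2 of the 7 (Sirt1 and Sirt6), and 16.9% of all genes tested. The sirtuins' median log2 fold change was 0.09. The same 3 sirtuins were those whose libraries did not overlap between genotypes, a pattern found in 21.1% of all genes tested. Sirt1 was higher in Cox10-/-, and Sirt2 and Sirt6 were lower.

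Among the nuclear sirtuins, Sirt1, which deacetylates histones, p53, FoxO factors and PGC-1α, had 7.14, 7.43, 7.12 and 7.19 log2 CPM in Cox10-/- replicates 1 to 4. It had 7.01, 7.05, 6.71 and 6.74 log2 CPM in wild-type replicates 1 to 4. Every Cox10-/- library was above every wild-type one, and the smallest gap was 0.07. The log2 difference was 0.34 ± 0.11 (SE), or 1.27 times wild-type, with a 95% interval of 0.10 to 0.58 on the log2 scale, and the adjusted p of 0.0538 missed the threshold. It was 0.255 within replicates 1 and 2 and 0.43 within replicates 3 and 4. Sirt1 passed without wild-type replicate 2 (adjusted p = 0.0343), and did not when any of the other 7 libraries was left out. It also passed with a filter of mean log2 CPM of 2 or more (0.0482), with replicate number as a block (0.0273), with a covariate for the replicate pairs 1-2 and 3-4 (0.0146), without both shallowest libraries (0.0423) and by voom (0.0384). It did not pass with 2 means per genotype (0.286), with no trend in the variance prior (0.131) or after centring each library on its median (0.0809).

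Sirt6, a chromatin deacetylase of histone H3 with roles at telomeres and in glycolytic gene repression, had 2.65, 2.27, 2.45 and 2.05 log2 CPM in Cox10-/- replicates 1 to 4, from 27, 21, 17 and 7 reads. It had 3.17, 3.14, 3.46 and 2.85 log2 CPM in wild-type replicates 1 to 4, from 32, 19, 51 and 29 reads. All Cox10-/- libraries were below all wild-type libraries. The log2 difference was -0.80 ± 0.26 (SE; 95% interval -1.36 to -0.24), or 57.4% of wild-type, and the adjusted p of 0.0529 missed the threshold. Both pairs of replicates had the same sign, at -0.695 and -0.905. Sirt6 passed with a filter of mean log2 CPM of 2 or more (adjusted p = 0.0398), with 1 (0.0492) or 4 (0.043) added to the CPM, with no trend in the variance prior (0.0246), with a covariate for the replicate pairs 1-2 and 3-4 (0.0476) and by voom (0.0487). It did not pass with 2 means per genotype (0.269), with replicate number as a block (0.0681), after median centring (0.0551) or without both shallowest libraries (0.0961). It passed in none of the 8 fits that left out a library.

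Sirt7, a nucleolar sirtuin that deacetylates histone H3 and acts on ribosomal DNA transcription, ranged from 3.94 to 5.01 log2 CPM in Cox10-/- and from 3.75 to 4.75 in wild-type. The difference was 0.16, with a 95% interval of -0.39 to 0.72 (adjusted p = 0.71). It was 0.715 within replicates 1 and 2 and -0.39 within replicates 3 and 4, and its sign turned without Cox10-/- replicate 1 (-0.01) or wild-type replicate 2 (-0.03). In GENCODE M21, 124 exon bases of Sirt7 are shared with Mafg on the same strand, so some reads could belong to either gene.

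Sirt2, the mainly cytosolic sirtuin that deacetylates tubulin, had 6.89, 6.78, 6.64 and 6.54 log2 CPM in Cox10-/- replicates 1 to 4. It had 6.99, 6.91, 6.99 and 7.07 log2 CPM in wild-type replicates 1 to 4. All Cox10-/- libraries were below all wild-type libraries, with Cox10-/- replicate 1 only 0.02 below the nearest. The log2 difference was -0.28 ± 0.10 (SE; adjusted p = 0.0732), 82.5% of wild-type. It was -0.115 within replicates 1 and 2 and -0.44 within replicates 3 and 4. Sirt2 passed without Cox10-/- replicate 1 (adjusted p = 0.043) and with a covariate for the replicate pairs 1-2 and 3-4 (0.0467), and did not pass with 2 means per genotype (0.386) or after median centring (0.232).

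The mitochondrial sirtuins, which act in the compartment whose respiratory chain Cox10 serves, showed no difference that passed. Sirt3, the main mitochondrial deacetylase, had 3.56, 3.88, 3.79 and 3.24 log2 CPM in Cox10-/- replicates 1 to 4 and 3.30, 3.07, 4.05 and 3.69 in wild-type replicates 1 to 4. Its difference was 0.09, with a 95% interval of -0.47 to 0.65 (adjusted p = 0.846). In GENCODE M21, 418 exon bases of Sirt3 lie opposite Ric8a and 342 opposite Psmd13. How strand was used in counting is not given in the sources used here.

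Sirt4, a mitochondrial lipoamidase and ADP-ribosyltransferase, had 3.35, 3.34, 2.61 and 1.82 log2 CPM in Cox10-/- replicates 1 to 4 and 2.70, 2.22, 2.95 and 3.35 in wild-type replicates 1 to 4. Its reads were few, 44, 44, 19 and 6 in the Cox10-/- libraries and 23, 10, 36 and 41 in the wild-type libraries. The difference was -0.03 (95% interval -0.84 to 0.79; adjusted p = 0.97). Sirt5, which removes succinyl, malonyl and glutaryl groups, had 3.48, 3.76, 3.72 and 3.05 log2 CPM in Cox10-/- replicates 1 to 4 and 3.38, 3.07, 3.37 and 3.48 in wild-type replicates 1 to 4. The difference was 0.18 (95% interval -0.32 to 0.68; adjusted p = 0.646). These intervals leave room for changes of the size seen for Sirt1.

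Sirt3, Sirt4 and Sirt5 shared a split between the pairs of replicates. Within replicates 1 and 2 the difference was 0.535 for Sirt3, 0.885 for Sirt4 and 0.395 for Sirt5, and within replicates 3 and 4 it was -0.355, -0.935 and -0.04 in the same order. Sirt7 and Nadk also had opposite signs in the pairs, which makes 5 of the 10 genes (50%), against 35.5% of all genes tested. Depth moved with this split. Cox10-/- replicate 4 and wild-type replicate 2 were the shallowest of their genotypes. For 6 of the 10 genes, or 60% (Sirt2, Sirt3, Sirt4, Sirt5, Sirt7 and Nadk), both at once held their genotype's lowest value. The same was true of 24.0% of all genes tested. The part of depth in these values was not tested.

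**Figure D2:**
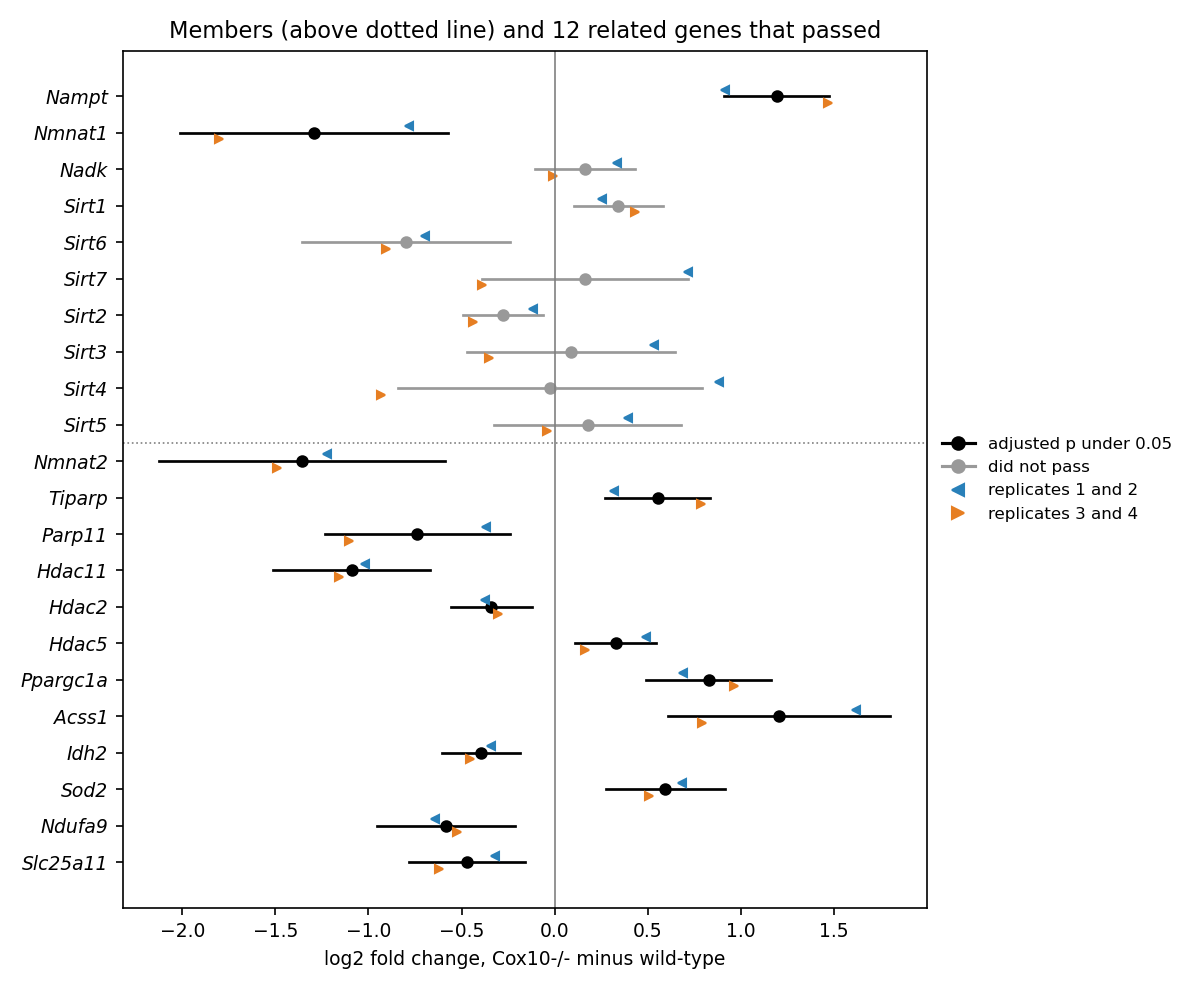
Log2 fold change, Cox10-/- minus wild-type, with its 95% interval for the 10 genes (above the dotted line) and 12 of the 13 related genes that passed (below it). Black marks an adjusted p under 0.05 and grey one at or above it, while triangles give the differences within replicates 1 and 2 (blue) and 3 and 4 (orange). The triangles of Nampt, Sirt1 and Sirt6 stay on one side of 0, and those of Sirt3, Sirt4, Sirt5 and Sirt7 fall on both.

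Per kilobase of the longest GENCODE M21 transcript, Sirt2 had the highest mean of the 10 genes in both genotypes, at 49.5 CPM per kb in Cox10-/- and 60.0 in wild-type. In Cox10-/- cells it was followed by Nampt (40.9), Sirt1 (33.7), Nadk (26.3), Sirt7 (6.85), Sirt5 (4.67), Sirt4 (3.83), Sirt3 (3.83), Sirt6 (2.71) and Nmnat1 (1.70), all in CPM per kb. In that order the libraries of neighbours overlapped except between Sirt1 and Nadk and between Nadk and Sirt7. In wild-type cells Sirt2 was followed by Sirt1 (26.5), Nadk (23.5), Nampt (17.9), Sirt7 (6.12), Sirt6 (4.71), Nmnat1 (4.16), Sirt5 (4.13), Sirt4 (3.90) and Sirt3 (3.60). There the neighbours overlapped except Sirt2 and Sirt1, Nadk and Nampt, and Nampt and Sirt7. Nampt thus stood below Nadk in every wild-type library and above it in every Cox10-/- library, while Nmnat1 had the lowest mean of the 10 in Cox10-/- alone. The order depends on the length used. With all exons of a gene summed, 8 of the 20 places stayed as they were, and Nampt, Sirt1 and Nadk then stood above Sirt2 in Cox10-/- cells.

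**Figure D3:**
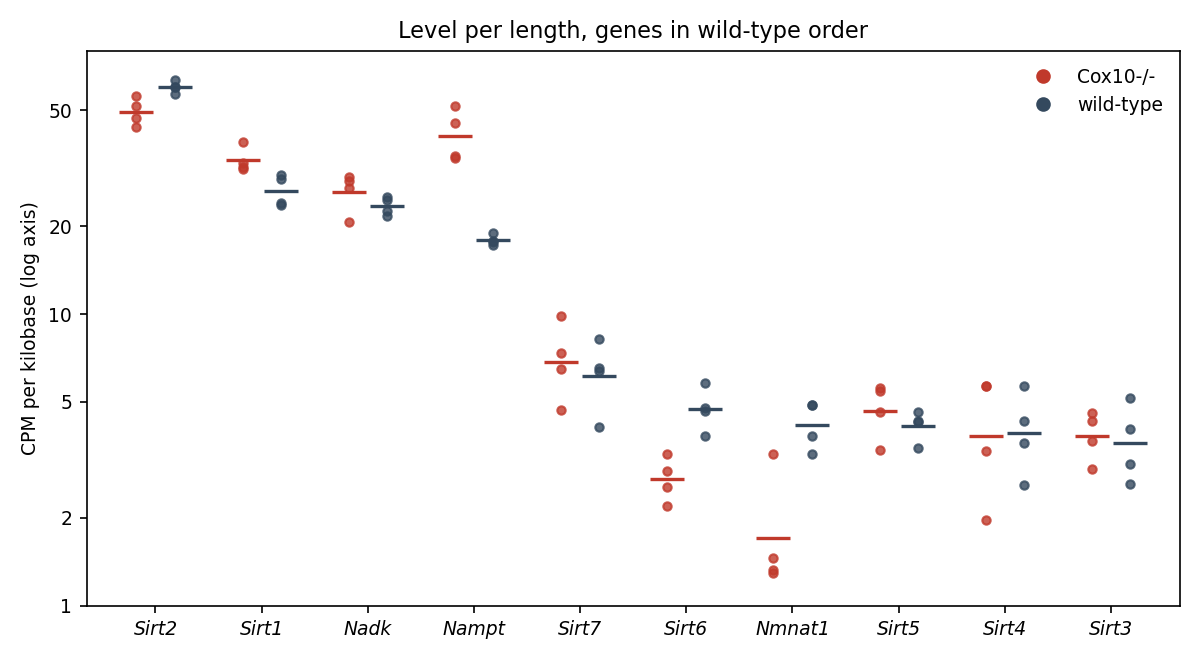
Level per kilobase of the longest transcript (CPM per kb, log axis) for the 10 genes in wild-type order, with points for single libraries and bars for geometric means, Cox10-/- in red to the left and wild-type in dark blue to the right. Sirt2, Sirt1, Nadk and Nampt lie above 17 CPM per kb in all libraries and the other 6 genes below 10.

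Of 81 related genes in 5 lists, 73 were measured and 13 passed, 6 higher and 7 lower in Cox10-/-. That is 17.8%, beside 16.1% of all genes tested, and their median log2 fold change was 0.0025. By list, the share was 7.69% for other NAD synthesis and transport, 11.1% for other NAD and nicotinamide users and 27.3% for zinc-dependent deacetylases. It was 31.6% for sirtuin substrates and partners and 8.33% for NADH shuttles and lactate dehydrogenases. Values below are log2 fold changes with SE and limma's adjusted p.

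Of 13 other genes of NAD synthesis and transport, Nmnat2, which makes NAD at the Golgi and in the cytosol, was the one that passed. It fell by 1.36 ± 0.35 (adjusted p = 0.0219), to 2.57 ± 0.17 log2 CPM in Cox10-/- against 3.93 ± 0.82 in wild-type (SD, n = 4 each). The wild-type libraries lay apart, at 4.70, 2.80, 4.29 and 3.92, and Cox10-/- replicate 3 (2.82) was above the lowest of them. The call was lost without wild-type replicate 1 (adjusted p = 0.074) or 3 (0.0633). The list's median was 0.0425, and the other 12 did not pass. Among these, named after their values were seen, the mitochondrial adenylyltransferase Nmnat3 differed by -0.03 (adjusted p = 0.942) and the mitochondrial NAD kinase Nadk2 by 0.31 (adjusted p = 0.172).

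Of 18 other NAD and nicotinamide users, 1 rose and 1 fell, with a median of -0.01. Tiparp, a mono-ADP-ribosyltransferase induced by the aryl hydrocarbon receptor, rose by 0.55 ± 0.13 (adjusted p = 0.013). It had 8.10 to 8.35 log2 CPM in Cox10-/- libraries against 7.41 to 8.06 in wild-type libraries, without overlap. Its call was lost with no trend in the variance prior (adjusted p = 0.0599) and with 2 means per genotype (0.0846). Parp11, another mono-ADP-ribosyltransferase, fell by 0.74 ± 0.23 (adjusted p = 0.0458), and kept its call in 2 of the 8 fits without a library, those without Cox10-/- replicate 1 (0.0151) and without wild-type replicate 2 (0.0396). Its adjusted p in the other 6 was 0.072 to 0.126.

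Of the 11 zinc-dependent histone deacetylases, a family that works without NAD, 1 rose and 2 fell, with a median of -0.08. Hdac11, a fatty acyl hydrolase of the family, fell by 1.09 ± 0.19 (adjusted p = 0.00267), with 3.66 to 3.99 log2 CPM in Cox10-/- libraries against 4.39 to 5.13 in wild-type libraries, and passed without any 1 library. Hdac2, a class I nuclear deacetylase, fell by 0.34 ± 0.10 (adjusted p = 0.0368), and Hdac5, a class IIa repressor of MEF2, rose by 0.33 ± 0.10 (adjusted p = 0.0434). Each kept its call in 1 of the 8 fits without a library, that without Cox10-/- replicate 4, where the adjusted p was 0.0443 for Hdac2 and 0.0203 for Hdac5. In the other 7 it reached 0.117 for Hdac2 and 0.104 for Hdac5.

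Of 19 sirtuin substrates and partners, 4 rose and 2 fell, with a median of 0.0975. Acss1, the mitochondrial acetyl-CoA synthetase that Sirt3 activates, rose by 1.21 ± 0.27 (adjusted p = 0.0113). Ppargc1a, which encodes PGC-1α, the Sirt1 substrate that drives mitochondrial genes, rose by 0.83 ± 0.15 (adjusted p = 0.00367). Its levels were 5.81 to 6.24 log2 CPM in Cox10-/- libraries against 4.92 to 5.57 in wild-type libraries.

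Sod2, the mitochondrial superoxide dismutase, rose by 0.60 ± 0.15 (adjusted p = 0.0168), while Idh2, the mitochondrial NADP-dependent isocitrate dehydrogenase, fell by 0.40 ± 0.10 (adjusted p = 0.0151). Both proteins are activated by Sirt3, whose own RNA did not pass. RNA levels do not show the acetylation of these proteins, and any link to Sirt3 was not tested. The libraries of the genotypes did not overlap for any of these 4 genes (Acss1, Ppargc1a, Sod2 and Idh2), a pattern found in 21.1% of all genes tested. None of the 4 lost its call when 1 library was left out. Idh2 came nearest, with an adjusted p just under 0.05 without wild-type replicate 3. Ndufa9, a complex I subunit, fell by 0.58 ± 0.17 (adjusted p = 0.0353). It kept its call in 1 of those 8 fits, without wild-type replicate 2 (0.0241), with adjusted p up to 0.115 in the others. Of the 4 genes named before Ndufa9, Ppargc1a passed in all 19 other fits. Idh2 lost its call after median centring (limma adjusted p = 0.0607) and Sod2 with no trend in the variance prior (0.0644). With 2 means per genotype, Acss1 (0.0769), Sod2 (0.0969) and Idh2 (0.213) did not pass.

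Of 12 NADH shuttle and lactate dehydrogenase genes, 1 passed, with a median of -0.04. Slc25a11, the mitochondrial carrier that exchanges malate for oxoglutarate, fell by 0.47 ± 0.14 (adjusted p = 0.0439). It kept its call in 1 of the 8 fits, without wild-type replicate 2 (0.0165), with adjusted p up to 0.124 in the others. With 2 means per genotype, 4 of the 13 related genes passed, among them Nmnat2 (adjusted p = 0.0467), Hdac11 (0.0362) and Ppargc1a (0.0446).

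**Figure D4:**
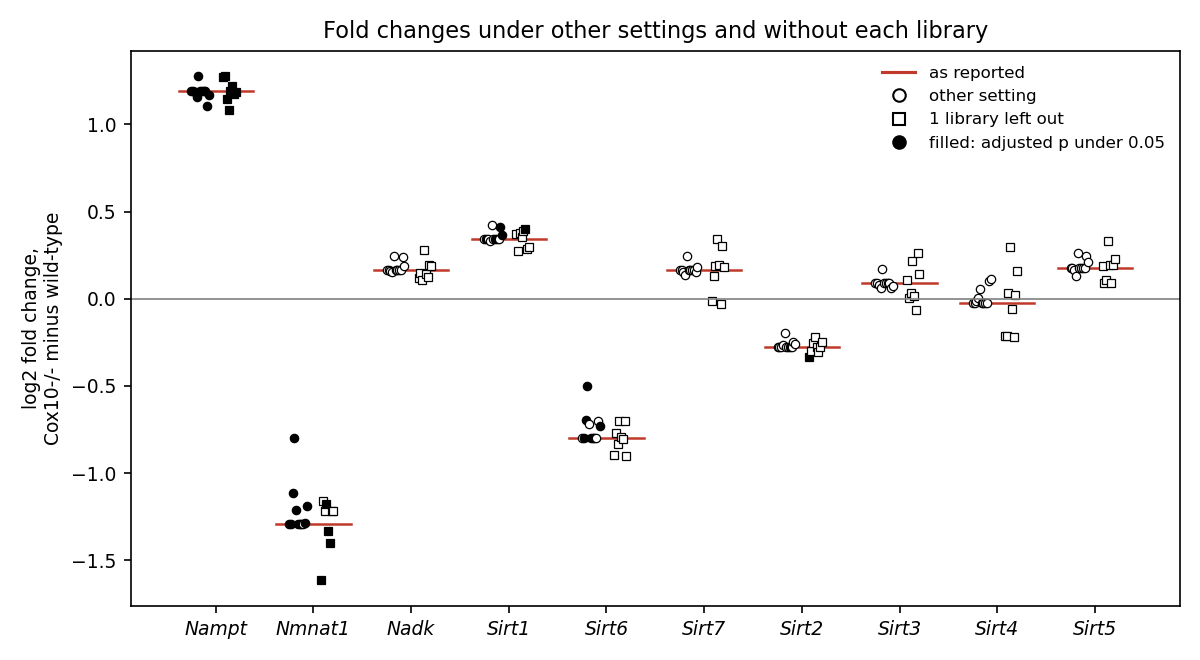
Log2 fold change of the 10 genes, Cox10-/- minus wild-type, as reported (red line), under other settings (circles) and without each library in turn (squares), filled where the adjusted p was under 0.05. Every Nampt symbol is filled, Nmnat1, Sirt1, Sirt2 and Sirt6 have both kinds, and the symbols of Sirt3, Sirt4 and Sirt7 lie on both sides of 0.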

How the data were processed

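The table deposited by the authors holds log2 CPM values for 8 libraries, as tested on the file: rounded to 2 decimals, with CPM of 1 or less set to 0. Per the submitters' processing notes, the tools were HISAT2, Trim Galore, featureCounts and DESeq2 and the build mm9; versions, roles and strand counting are not stated there. A further 1054 rows hold no gene and were left out. Low values were whole multiples of 1 read (100% within 0.1, up to 20 reads), which gave read numbers and depths.

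Genotypes were compared with limma (3.58.1, R 4.3.3), applied to the deposited values, without pseudocount, with genotype alone and a variance prior trended on the mean, over genes above 0 in at least 4 libraries (17801, with 46 removed). P-values were adjusted by Benjamini-Hochberg over all of them at 0.05. Named genes are the 10 members, Cox10, Pax7 and, of each related list, up to 6 that passed; 1 of these is counted but not reported here. The members and lists were chosen with earlier results of these data known. Lengths come from GENCODE M21 and promoters from RefSeq, both GRCm38, and no coordinate was moved between builds. The fit was also run on simulated libraries. These were drawn independently, without the likeness seen between some replicates, so that run does not test how this likeness bears on the calls.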

Additional observations from a re-analysis of the deposited data

Results flagged for a closer look

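Among 50 groups of 4 libraries (25 named genes in 2 genotypes), 2 held a library whose gap to the other 3, over the group's range, was past Dixon's 95% critical value. Chance alone flags about 1 group in 20. Nmnat1 in Cox10-/- replicate 1 stood at 3.14 log2 CPM, against 1.78 to 1.95 in the other 3 Cox10-/- libraries, with a gap of 0.875 of the range. Without that library the Nmnat1 log2 fold change was -1.61 (limma adjusted p = 0.00347), against -1.29 with it. Cox10 in Cox10-/- replicate 4, the shallowest library, stood at 2.05 log2 CPM on 7 reads, with a gap of 0.878 of the range.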

How the results depend on the processing

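Nampt kept its direction and its call in all 19 other fits. The number of the 10 genes that passed was 2 as reported. It was 4 with a filter of mean log2 CPM of 2 or more, 5 with a covariate for the replicate pairs 1-2 and 3-4, 1 with 2 means per genotype, 4 by limma voom on recovered reads, and 1 to 3 without 1 library. The share of all genes tested that passed was 16.1% as reported, 19.3% with that filter, 21.6% with the covariate, 4.82% with 2 means, 16.9% by voom and 10.3% to 16.3% without 1 library. The number of related genes that passed was 13 as reported, 7 with no trend in the variance prior, 4 with 2 means per genotype and 7 to 13 without 1 library. Over all genes, 2863 passed as reported, 858 with 2 means per genotype and 1840 to 2907 without 1 library. The lowest counts came without Cox10-/- replicate 3 (1840) and wild-type replicate 1 (1902). Of calls over all genes, 47.1% were higher in Cox10-/- as reported and 58.4% after centring each library on its median. Signs turned for 3 genes, none of which passed in any setting. Sirt4 was -0.03 as reported, 0.003009 with 4 added to the CPM, 0.0575 after median centring, 0.10 without both shallowest libraries, 0.11 by voom and -0.22 to 0.295 without 1 library. Sirt3 (0.09) was -0.0625 to 0.2642 and Sirt7 (0.16) -0.02917 to 0.345 without 1 library. The cause was not tested. With summed exons as length, 8 of 20 places in the level order stayed.

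With replicate number as a block, 3 of the 10 genes, 11 related genes and 3201 of all genes passed; Sirt1 joined (adjusted p = 0.0273). Deviations of same-numbered libraries from their genotype mean correlated at 0.045, 0.137, 0.109 and 0.13, and not every library correlated best with its own number, so the numbers were not taken as pairs. The planned count-based fits were not run, because the deposited unit is log2; voom replaced them, chosen after seeing the data. Depth limits Nmnat1, Sirt4 and Sirt6, which rest on 6 or 7 reads in Cox10-/- replicate 4.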
